A study of Mus musculus with 6 samples.

Results

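Transcripts of 10 immediate early genes were compared between senescence-marker fractions of 4T1, a mouse mammary carcinoma line. The genes were the FOS family (Fos, Fosb, Fosl1 and Fosl2), the JUN family (Jun, Junb and Jund), Egr1, Atf3 and Myc. They were taken by gene symbol from a table of 53465 genes, and all 10 were among the 14038 genes with enough counts to be tested. The cells were resistant to axitinib, a VEGF receptor kinase inhibitor: they had been grown from lesions in mice that received 100 mg/kg/day of it after surgery, and were cultured with 0.5 µM. They were sorted by C12FDG, a fluorogenic β-galactosidase substrate, into SA-β-galHi (SM positive) and SA-β-galLo (SM negative) cells, with libraries numbered 1 to 3 in each fraction. Both fractions therefore carried the same resistance history and drug exposure, and no untreated or unsorted cells were among the groups. Nothing in the labels says that the numbered libraries came from separate cultures or sorts, so the p-values rest on a spread that may be technical.

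Immediate early genes are transcribed within minutes of a growth factor, stress or mechanical signal, from factors that are already present in the cell. FOS proteins cannot pair with themselves and bind DNA with a JUN partner as AP-1, while JUN proteins can also pair with each other. FOSL1 and FOSL2, the FRA proteins, lack the strong activation domain of FOS and FOSB and are made for longer in many carcinoma cells. EGR1 is a zinc finger factor induced through the ERK pathway, ATF3 is a stress-induced bZIP repressor, and MYC pairs with MAX and drives ribosome production and growth. In senescent cells, AP-1 is known as an organiser of the enhancers that become active.

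Promoters of Fos and Jun, which rose in SM positive cells, are shown with that of Fosb, which, like Fos, was lowest in the libraries numbered 2 but did not pass between fractions. Each is the 250 bases before the start site in RefSeq (GRCm38.p6), given 5′ to 3′ on the gene's strand, with matches to the searched motifs in capitals. The windows are chr12:85473640-85473889 (plus strand) for Fos, chr4:95052223-95052472 (minus) for Jun and chr7:19310046-19310295 (minus) for Fosb.
Fos: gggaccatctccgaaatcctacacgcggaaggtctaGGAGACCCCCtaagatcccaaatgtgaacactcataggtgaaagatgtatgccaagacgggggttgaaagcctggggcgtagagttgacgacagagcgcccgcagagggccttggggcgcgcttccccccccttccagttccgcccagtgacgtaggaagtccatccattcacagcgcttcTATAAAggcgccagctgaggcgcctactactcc
Jun: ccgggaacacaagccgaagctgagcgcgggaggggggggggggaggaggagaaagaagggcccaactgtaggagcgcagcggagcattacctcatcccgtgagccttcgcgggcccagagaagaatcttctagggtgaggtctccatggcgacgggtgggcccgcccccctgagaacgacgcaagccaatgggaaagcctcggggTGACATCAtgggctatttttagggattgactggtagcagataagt
Fosb: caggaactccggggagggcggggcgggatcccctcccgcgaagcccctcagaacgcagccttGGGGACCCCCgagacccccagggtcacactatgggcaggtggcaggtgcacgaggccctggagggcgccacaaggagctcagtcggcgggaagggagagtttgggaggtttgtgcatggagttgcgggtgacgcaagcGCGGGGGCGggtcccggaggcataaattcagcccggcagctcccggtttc

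Windows were found for 7 of the 10 genes, those 3 and Fosl2, Junb, Jund and Atf3, and 8 motifs were searched on both strands. RefSeq and GENCODE place some starts differently. The Fosl2 window lies within the first exon of the GENCODE gene, the Atf3 window lies between the ends of its gene, and the Jund window ends upstream of its gene without reaching it. The AP-1 site TGACTCA, the cyclic AMP element TGACGTCA, the MYC E-box CACGTG and the serum response CArG box matched in none of the 7. Of all 32851 windows of this length, 4.46%, 1.55%, 6.02% and 1.47% hold these motifs. TGACNTCA, which includes TGACGTCA, matched in Jun as TGACATCA, 45 to 38 bases before the start, and 7.49% of all windows hold it. The EGR site GCGGGGGCG matched in Fosl2, 79 to 71 bases before the RefSeq start, and in Fosb, 50 to 42 bases before it (2.57% of all windows). TATAAA matched in Fos alone, 33 to 28 bases before the start (12.4% of all windows), and the NF-κB motif matched in Fos, Fosl2 (2 overlapping matches) and Fosb (3.90%). These are matches of letters, and no binding was measured. Sites that differ from the searched letters, or that lie farther from the start than the window, would not be found.

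The libraries held 18733801 to 26533528 counts, and values below are TMM-scaled CPM, which relate each gene's count to the library's scaled total. Of 10 mammary epithelial markers, 9 were tested, and their summed level was 4499 to 4717 CPM in SM negative and 4220 to 4540 CPM in SM positive libraries, led by Krt7 and Krt18. Epcam, Cldn4 and Krt19 fell in SM positive cells. Krt5 had 0 counts in all libraries. The 9 endothelial markers, Pecam1 and Vwf being the most abundant, summed to 0.694 CPM or less. The 15 leukocyte markers summed to 15.0 to 16.2 CPM in SM negative and 12.1 to 14.7 CPM in SM positive libraries, nearly all of it Cd14 and Cd68. Of these, Cd68 fell (log2 change -0.46), and 7, Cd3e, Cd3g, Cd4, Cd8a, Adgre1, Ly6g and Tyrobp, had 0 counts in all libraries. The 12 fibroblast and pericyte markers summed to 4.88 to 5.41 CPM in SM negative and 6.35 to 8.81 CPM in SM positive libraries, most of it Pdgfra, which rose (log2 change 0.49), followed by Col1a1. Lum, Col3a1 and Thy1 had 0 counts. The part of these markers in the results below was not tested.

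Per kilobase of merged exon, Jund was the most abundant of the 10 at 182 ± 18.1 CPM per kilobase (SD over 6 libraries). Its range over libraries, 165 to 209, lay above that of every other member. Myc (98.3 ± 9.49), Fosl1 (80.8 ± 6.10), Junb (74.3 ± 7.47) and Jun (57.0 ± 12.0 CPM per kilobase) followed, and neighbours in this order overlapped between libraries. Fosl2 stood lower, at 16.3 ± 3.54 CPM per kilobase, and its range did not meet that of Jun. Atf3 (12.1 ± 1.91), Egr1 (10.1 ± 2.00), Fos (8.61 ± 4.13) and Fosb (3.96 ± 1.32 CPM per kilobase) closed the order, each overlapping its neighbour. On this scale Fosl1 made up 69.3% to 79.1% of the summed FOS family level in a library. Fos made up 3.59% to 13.3% and Fosb 2.00% to 5.09%. Among the JUN family, Jund made up 56.6% to 60.6%, Junb 19.8% to 27.0% and Jun 13.7% to 22.6%. The share of Jun was 16.4 ± 2.32% in SM negative and 19.8 ± 2.67% in SM positive libraries, and that of Junb 25.5 ± 1.43% and 22.1 ± 3.08%, ranges that overlapped. By level per kilobase, the FOS and JUN transcript pools were thus mostly Fosl1 and Jund in both fractions. As CPM, Fosl1 (164) and Fosl2 (158) stood near each other, so the Fosl1 share rests on merged exon lengths of 2033 and 9680 bases. Jund was the highest of its family as CPM too (304, against 182 for Jun and 171 for Junb). Merged exons join all annotated exons of a gene, and the lengths expressed in these cells were not measured.

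In the comparison of fractions, Fos, Fosl2 and Jun rose in SM positive cells, and Junb and Myc fell. Fosb, Fosl1, Jund, Egr1 and Atf3 did not pass the test. The changes of the called genes were small, from 1.14-fold lower for Junb to 1.36-fold higher for Fos. These calls come from edgeR's quasi-likelihood test with the replicate number as a block, which compares libraries of the same number, at an adjusted p of 0.05 over all genes tested. In that fit 3 of the 10 were higher, against 8.52% of all genes tested, and 2 were lower, against 5.6%. In either direction 5 of 10 were called, against 14.1% of all genes. Fosl1, Fosl2, Jun, Junb, Jund and Myc had a higher mean CPM than 90.6% to 96.1% of genes tested. Fos, Fosb, Atf3 and Egr1 lay above 45.2% to 64.9%. Small changes pass more easily at high counts, and the shares over all genes, here and below, were not matched for level. Without the block edgeR called 0 of the 10, against 1.35% of all genes (1.14% higher and 0.214% lower), and 2, Junb and Myc, had an unadjusted p under 0.05. With the block, DESeq2 called 4 of the 10 and limma-voom 5, against 616 and 1586 of all 14038 genes. None of the 10 had fractions that did not overlap, against 19.9% of all genes tested (10.4% with SM positive above and 9.47% with it below). The SM positive library was the higher in all 3 pairs for 4 of the 10 (23.9% of all genes) and the lower in all 3 for 3 (22.7%). In sorted bulk cells, more cells with a transcript and more of it per cell cannot be told apart.

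**Figure D1:**
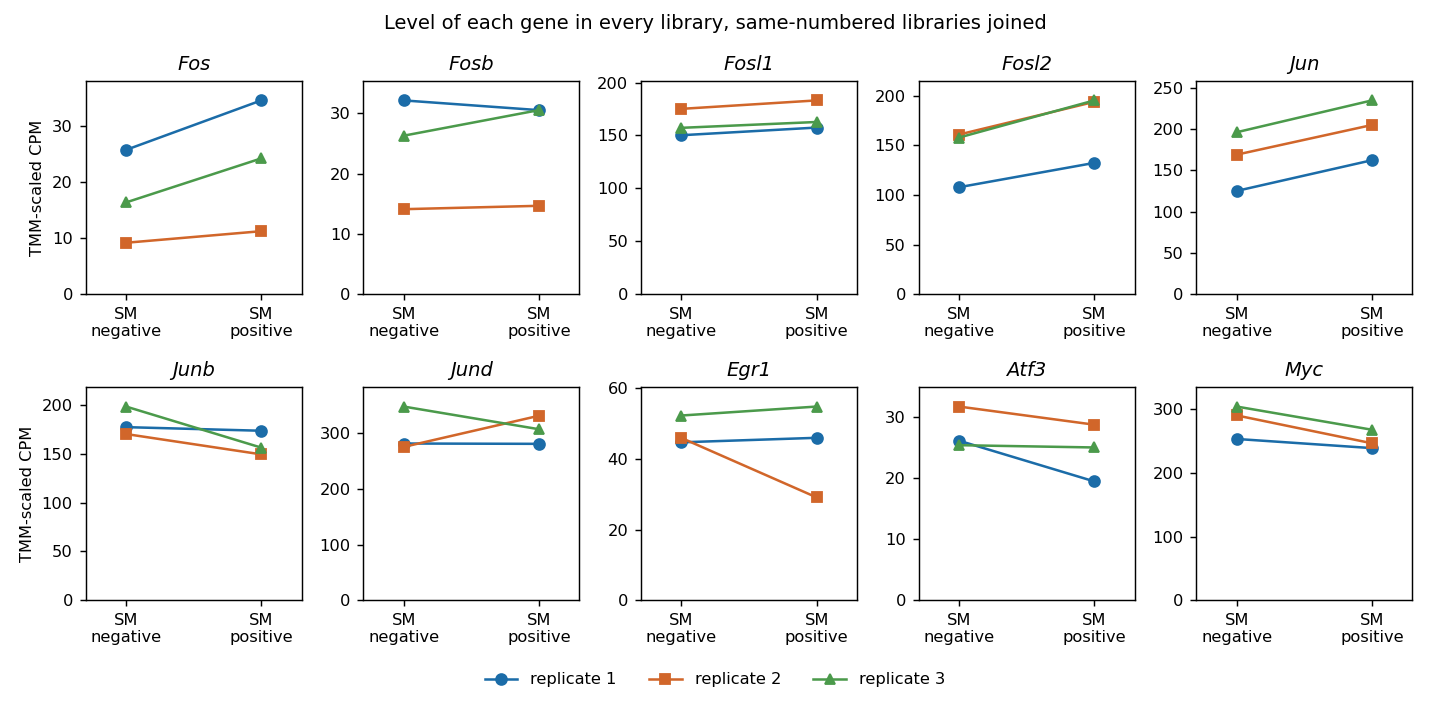
TMM-scaled CPM of each gene (vertical axis, from 0) in SM negative and SM positive libraries, with libraries of the same replicate number joined by a line. The lines of Fos, Fosl2 and Jun rise in all 3 pairs while their heights differ by replicate number, and those of Myc fall in all 3.

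Fos (ENSMUSG00000021250.13, chromosome 12, 85473890 to 85477273, plus strand), the founding FOS protein of AP-1, stood at 25.8, 9.19 and 16.4 CPM in SM negative libraries 1, 2 and 3. It stood at 34.6, 11.3 and 24.3 CPM in SM positive libraries 1, 2 and 3. The fractions overlapped widely, and both libraries numbered 2 were low, yet the SM positive library was the higher of each pair. The within-pair log2 changes were 0.42, 0.29 and 0.56, and the fitted log2 change was 0.44 ± 0.0708 (SE; 1.36-fold, adjusted p = 0.000223). Without the block the log2 change was the same and the adjusted p was 0.813. Fos passed under all 11 other settings that kept the block, at an adjusted p of at most 0.0235.

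Jun (ENSMUSG00000052684.4, chromosome 4, 95049034 to 95052222, minus strand), which can activate its own promoter through AP-1 sites, stood at 125, 169 and 196 CPM in SM negative libraries 1, 2 and 3. In SM positive libraries it stood at 162, 205 and 235 CPM. Libraries numbered 1 were the lowest and those numbered 3 the highest in both fractions, which overlapped. The within-pair log2 changes were 0.38, 0.28 and 0.26, and the fitted log2 change was 0.30 ± 0.0409 (1.23-fold, adjusted p = 3.37e-05; 0.612 without the block). The antisense gene Junos shares 232 exonic bases with Jun and had 21 to 49 counts per library. The deposited Jun counts were not whole numbers. Those of Fosl1 and Junb, which also share exonic bases with a gene on the opposite strand, were whole. Whether the counting used strand is not stated, so reads of overlapping genes on opposite strands may have been mixed.

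Fosl2 (ENSMUSG00000029135.10, chromosome 5, 32135801 to 32157842, plus strand), which encodes the FRA protein FOSL2, stood at 108, 161 and 158 CPM in SM negative libraries 1, 2 and 3. In SM positive libraries it stood at 132, 194 and 195 CPM. Again the libraries numbered 1 were low, and the fractions overlapped. Its within-pair log2 changes of 0.30, 0.27 and 0.31 lay close together (fitted log2 change 0.29 ± 0.0400, 1.22-fold, adjusted p = 4.31e-05; 0.646 without the block). Fosl1 (chromosome 19, 5447547 to 5455946, plus strand), the more abundant FRA transcript per kilobase, was higher by a log2 of 0.05 to 0.07 in all 3 pairs. It stood at 161 ± 12.9 CPM in SM negative and 168 ± 13.6 CPM in SM positive libraries, and did not pass (log2 change 0.06, 95% interval -0.02 to 0.14, adjusted p = 0.349). The upper end of that interval lies below the lower end for Fosl2, 0.21, but the difference between genes was not tested. Fosl1 shares 1163 exonic bases with Ccdc85b on the opposite strand, which had 376 to 585 counts per library.

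Fosb (chromosome 7, 19302696 to 19310051, minus strand), the paralogue nearest to Fos in its activation domain and kinetics, did not pass between fractions. It stood at 32.2, 14.1 and 26.3 CPM in SM negative libraries 1, 2 and 3 and at 30.5, 14.7 and 30.5 CPM in SM positive libraries. Only the libraries numbered 2 stood apart, low in both fractions. The log2 change was 0.06 (95% interval -0.08 to 0.20, adjusted p = 0.63), with pairs at -0.07, 0.06 and 0.22.

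Junb (ENSMUSG00000052837.6, chromosome 8, 84974484 to 84978718, minus strand), a JUN protein with weaker activation that can restrain JUN, moved the other way from Jun. It stood at 177, 170.2 and 198 CPM in SM negative libraries 1, 2 and 3 and at 174, 149 and 156 CPM in SM positive libraries. Only SM positive library 1 lay within the SM negative range. The within-pair log2 changes were -0.03, -0.19 and -0.34 (fitted -0.19 ± 0.0517, 1.14-fold lower, adjusted p = 0.0279; 0.297 without the block). The call ended without replicate 2 (adjusted p = 0.200), without replicate 3 (0.256), with DESeq2 (0.0676) and without robust estimation (0.0545). Prdx2 on the opposite strand shares 173 exonic bases with Junb and was itself at 317 and 305 CPM in SM negative and SM positive libraries. Its log2 change was -0.05 (adjusted p = 0.442).

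Jund (chromosome 8, 70698949 to 70700616, plus strand), the JUN protein expressed without stimulation in most cells, stood at 282, 276 and 348 CPM in SM negative and 281, 332 and 307 CPM in SM positive libraries. The pairs went in different directions, with log2 changes of -0.003, 0.27 and -0.18 (fitted 0.03, 95% interval -0.23 to 0.28, adjusted p = 0.895). The antisense gene Gm11175 shares 877 exonic bases with Jund. It had 63 to 130 counts in 5 libraries and 324 in SM positive library 1, and the deposited Jund counts were not whole numbers.

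Egr1 (chromosome 18, 34859823 to 34864984, plus strand) stood at 44.7, 45.9 and 52.2 CPM in SM negative libraries 1, 2 and 3 and at 45.9, 29.1 and 54.8 CPM in SM positive libraries. SM positive library 2 was lower than the other 5, and the remaining libraries lay between 44.7 and 54.8 CPM. The pairs differed by log2 0.04, -0.66 and 0.07. The fitted log2 change of -0.15 had a 95% interval of -0.97 to 0.66 (adjusted p = 0.75), the widest of the 10 genes. Without replicate 2 the log2 change was 0.05 (adjusted p = 0.578).

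Atf3 (chromosome 1, 191170296 to 191218039, minus strand) stood at 26.2, 31.8 and 25.4 CPM in SM negative and 19.5, 28.8 and 25.1 CPM in SM positive libraries. The SM positive library was the lower of each pair, by log2 -0.42, -0.14 and -0.02. The fitted log2 change was -0.20 ± 0.0710 and did not pass (adjusted p = 0.0709; 0.635 without the block), while with no filter on low counts it passed (adjusted p = 0.0378). SM positive library 1 was the lowest of all 6.

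Myc (ENSMUSG00000022346.15, chromosome 15, 61985391 to 61990374, plus strand) stood at 254, 291 and 304 CPM in SM negative libraries 1, 2 and 3 and at 239, 247 and 268 CPM in SM positive libraries. The SM positive library was the lower of each pair, and the ranges overlapped between 254 and 268 CPM. The within-pair log2 changes were -0.08, -0.24 and -0.18 (fitted -0.17 ± 0.0409, 1.12-fold lower, adjusted p = 0.00886; 0.345 without the block). The call ended without replicate 2 (adjusted p = 0.0575) and without replicate 3 (0.0851).

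**Figure D2:**
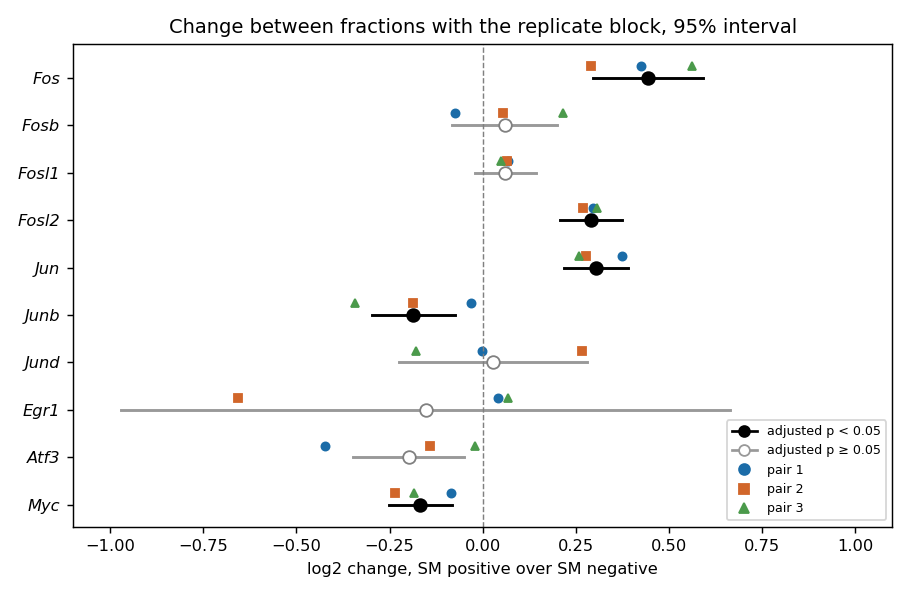
Log2 change of each gene, SM positive over SM negative (horizontal axis), as fitted with the replicate block (circles, filled where the adjusted p is under 0.05) with its 95% interval, and the change within each pair (coloured symbols). Fos, Fosl2 and Jun lie right of 0, Junb and Myc left of it, and Egr1 has the widest interval, set by pair 2.

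The replicate number carried more of the spread than the fraction did for 9 of the 10 genes, Junb being the exception. The number has 3 levels and the fraction 2, which favours a larger share for the number. How many of all genes tested had a larger share for the number was not counted. After these values had been seen, levels were also tested between the numbers 1, 2 and 3 in the same fit. With it 7 of the 10 differed, against 17% of all genes tested. The share of the sum of squares of log2 CPM that lay between replicate numbers was 98.2% for Fosb, 89.4% for Fos, 90.3% for Fosl1, 76.7% for Fosl2 and 71.6% for Jun. Its median over all genes tested was 48.3%. The share between fractions was 9.95% for Fos, 0.428% for Fosb, 27.6% for Jun and 44.8% for Myc, and its median over all genes was 19.3%.

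The numbers ordered the genes differently. Fos was 2.92-fold higher in libraries numbered 1, and 1.95-fold higher in those numbered 3, than in those numbered 2 (adjusted p between numbers = 2.41e-09). Fosb was 2.17-fold and 1.96-fold higher in the same libraries (adjusted p = 8.02e-08). A range over numbers of more than 1 on the log2 scale was seen for Fos (1.55) and Fosb (1.12), and for 1.79% of all genes tested. Jun and Fosl2 were instead lowest in libraries numbered 1, with ranges of 0.59 and 0.56 (adjusted p = 4.87e-07 and 1.77e-07). Atf3, Fosl1 and Myc also differed between numbers (adjusted p = 0.00744, 0.00763 and 0.0151), while Junb, Jund and Egr1 did not pass (adjusted p = 0.194, 0.456 and 0.516). The libraries numbered 1 were also the deepest of each fraction. What a replicate number marks is not given in the labels, and the part of depth or handling in these differences was not tested.

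**Figure D3:**
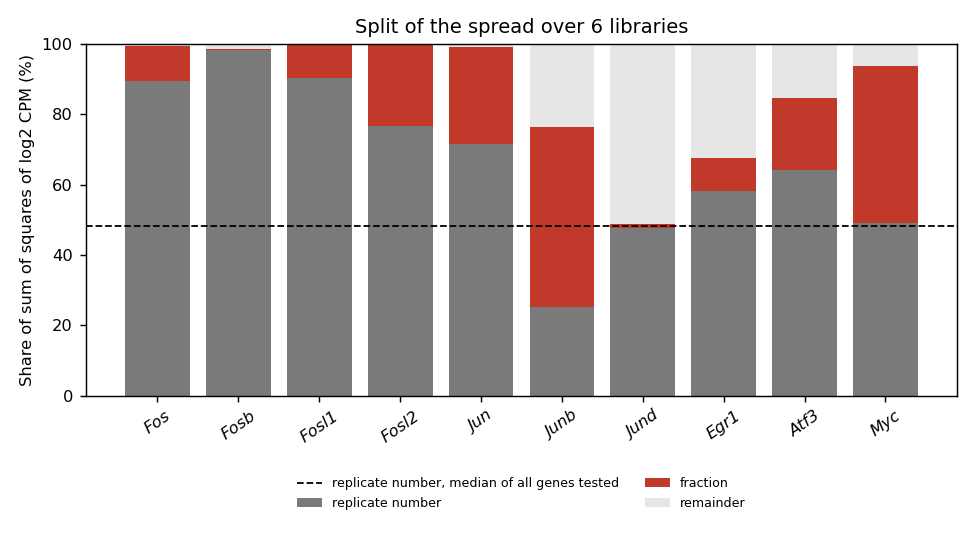
Share of the sum of squares of log2 CPM over the 6 libraries (vertical axis, percent) that lies between replicate numbers (dark grey), between fractions (red) and in the remainder (light grey), for each gene. The dashed line is the median share between replicate numbers over all genes tested, 48.3%, and Fos, Fosb, Fosl1, Fosl2 and Jun stand well above it.

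Other immediate early and early response genes were higher more often than lower, with 9 of 42 tested members rising and 3 falling (21.4% and 7.14%, against 8.52% and 5.6% of all genes). The median log2 change was 0.06, against -0.001 over all genes. Sgk1, a serum- and glucocorticoid-induced kinase, rose from 86.7 ± 1.86 to 124 ± 3.21 CPM (log2 change 0.51 ± 0.0421, adjusted p = 6.26e-08; 0.0022 without the block). Nab2, a corepressor that binds EGR proteins and is itself induced by EGR1, rose 1.34-fold to 53.4 ± 3.40 CPM (adjusted p = 4.3e-06; 0.0281 without the block). Plk2, a polo-like kinase, Klf10, a TGF-β-induced zinc finger factor, and Gadd45a, a growth arrest gene, fell by 0.18, 0.19 and 0.21 on the log2 scale. Without the block 2 members, Sgk1 and Nab2, passed, against 1.35% of all genes. With the block, 0 fell without replicate 1, 1 without replicate 3 and 1 with DESeq2. Over all genes, 506 rose and 199 fell without replicate 1 (14017 tested), and 1029 and 764 without replicate 2 (14247). These counts were 637 and 249 without replicate 3 (14231) and 423 and 193 with DESeq2 (14038). They are the background for the lists below. Between replicate numbers 24 of the 42 differed (57.1%, against 17%), yet none spanned the log2 range of 1 that Fos and Fosb did.

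Among other bZIP partners of AP-1, 2 of 15 tested rose and 2 fell (13.3% each way, against 8.52% and 5.6% of all genes), and none passed without the block. With the block, none fell without replicate 1, 2 or 3 in turn or with DESeq2, and 1 rose without replicate 3 and with DESeq2. Jdp2, a repressor that dimerises with JUN proteins, rose from 33.7 ± 4.70 to 42.5 ± 5.34 CPM (log2 change 0.33 ± 0.0524, adjusted p = 0.000181). Nfe2l2, the oxidative stress factor NRF2, rose 1.17-fold. Mafg and Mafk, small MAF proteins that lack an activation domain, fell by 0.14 and 0.16 on the log2 scale. The within-pair log2 changes of Mafg were -0.14, -0.14 and -0.13.

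Upstream of these genes, 4 of 33 members of the MAP kinase cascade and its nuclear factors rose and 3 fell (12.1% and 9.09%, near the 8.52% and 5.6% of all genes), and none passed without the block. With the block, 0, 1 and 0 rose and 0, 2 and 2 fell without replicate 1, 2 and 3, and 0 rose and 1 fell with DESeq2. Rps6ka5, a chromatin kinase of the MSK type, rose 1.20-fold, Mef2a, a MADS-box factor, 1.12-fold, and Map2k1, which phosphorylates ERK, 1.10-fold. Nras fell from 1420 ± 50.9 to 1199 ± 59.7 CPM (log2 change -0.25 ± 0.0445, adjusted p = 0.00078; 0.0659 without the block). The p38-type kinase genes Mapk12 and Mapk11 fell by 0.25 and 0.34 on the log2 scale.

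Of the feedback inhibitors and ERK-induced genes, 8 of 19 rose and 1 fell (42.1% higher and 5.26% lower, against 8.52% and 5.6% of all genes). The other 10 did not pass, and the median log2 change was 0.14. Spry1, an inhibitor of receptor kinase signalling, rose from 146 ± 12.8 to 189.8 ± 11.2 CPM (log2 change 0.39 ± 0.0417, adjusted p = 2.2e-06; 0.0332 without the block). Dusp6, a phosphatase that inactivates ERK and is induced by it, rose 1.21-fold (adjusted p = 0.000164; 0.243 without the block), and Etv1, an ETS factor, 1.25-fold. Dusp9, another ERK phosphatase, fell by 0.25 on the log2 scale. Without the block 1 of the 19 was called, Spry1, against 1.35% of all genes. With the block, 4 rose without replicate 1, 4 without replicate 3 and 3 with DESeq2. Of all genes, 506 of 14017, 637 of 14231 and 423 of 14038 rose in these fits.

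AP-1 target genes did not move one way, with 5 of 26 tested rising and 4 falling (19.2% and 15.4%, against 8.52% and 5.6% of all genes) and a median log2 change of -0.05. With the block, 2 rose and 2 fell without replicate 1, 3 rose and 1 fell without replicate 3, and 3 rose and 2 fell with DESeq2. Ptgs2, the inducible prostaglandin synthase, rose 1.51-fold (log2 change 0.60 ± 0.0502, adjusted p = 1.81e-06; 0.0148 without the block), the single member that passed without the block. The cyclin gene Ccna2 rose 1.12-fold. The collagen receptor subunit gene Itga2 fell by 0.34 on the log2 scale (adjusted p = 3.53e-05; 0.249 without the block). Ctsl, a lysosomal protease, fell by 0.14, and Hmga1, an architectural chromatin protein, by 0.13. Il6, Mmp1a, Mmp12, Ccl2, Ereg and Loxl2 had too few counts to be tested.

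Among EGR1 target genes, 2 of 13 tested rose, Nab2 and Thbs1, and none fell (15.4% higher, against 8.52% of all genes). Without replicate 2, 4 rose. Thbs1, the adhesive glycoprotein thrombospondin 1, rose from 1052 ± 136 to 1745 ± 240.1 CPM (log2 change 0.73 ± 0.0481, adjusted p = 1.31e-08; 0.0281 without the block). The stress response genes around ATF3 were divided, with 3 of 19 tested rising and 3 falling (15.8% each way, against 8.52% and 5.6% of all genes), and none passing without the block. With the block, 0, 1 and 2 rose and 2, 6 and 3 fell without replicate 1, 2 and 3, and 1 rose and 2 fell with DESeq2. Ppp1r15a, which restarts translation after stress, fell from 36.0 ± 4.15 to 28.9 ± 4.42 CPM (log2 change -0.32 ± 0.0553, adjusted p = 0.000551). Ddit3, a pro-apoptotic bZIP factor, fell by 0.25 on the log2 scale and Asns, asparagine synthetase, by 0.19, each lower in all 3 pairs. Nupr1, a stress-induced chromatin protein, rose 1.16-fold, Eif2ak2, the RNA-activated kinase PKR, 1.14-fold, and Ddit4, an inhibitor of mTOR signalling, 1.12-fold.

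Of the 49 MYC target genes, all tested, 17 fell and 1 rose in SM positive cells (34.7% and 2.04%, against 5.6% and 8.52% of all genes). A negative log2 change was seen for 42 of the 49, against 7060 of all 14038 genes. The median was -0.09. The fallen genes included Gnl3, a nucleolar GTPase, from 220.0 ± 17.1 to 192 ± 18.7 CPM (log2 change -0.20 ± 0.0396, adjusted p = 0.00165; 0.309 without the block). Hspe1, a mitochondrial chaperonin, and Nme1, a nucleoside diphosphate kinase, fell by 0.19 and 0.20 on the log2 scale. Hk2, which encodes hexokinase, rose 1.11-fold. Without the block none of the 49 passed, against 1.35% of all genes. With the block, 0 were lower without replicate 1, 3 without replicate 3 and 7 with DESeq2. Of all genes, 199 of 14017, 249 of 14231 and 193 of 14038 were lower in these fits. Of the MYC network, 2 of 18 tested rose and none fell (11.1% higher, near the 8.52% of all genes), with none passing without the block. With the block, 1 rose without replicate 1, without replicate 2 and with DESeq2. Max, the obligate partner of MYC, rose from 86.4 ± 5.12 to 97.1 ± 6.99 CPM (log2 change 0.17 ± 0.0422, adjusted p = 0.0109). Mxd4, which competes with MYC for MAX and represses, rose from 22.1 ± 4.41 to 29.2 ± 3.03 CPM (log2 change 0.40 ± 0.0687, adjusted p = 0.000497). Mycn and Mlxipl had too few counts to be tested.

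**Figure D4:**
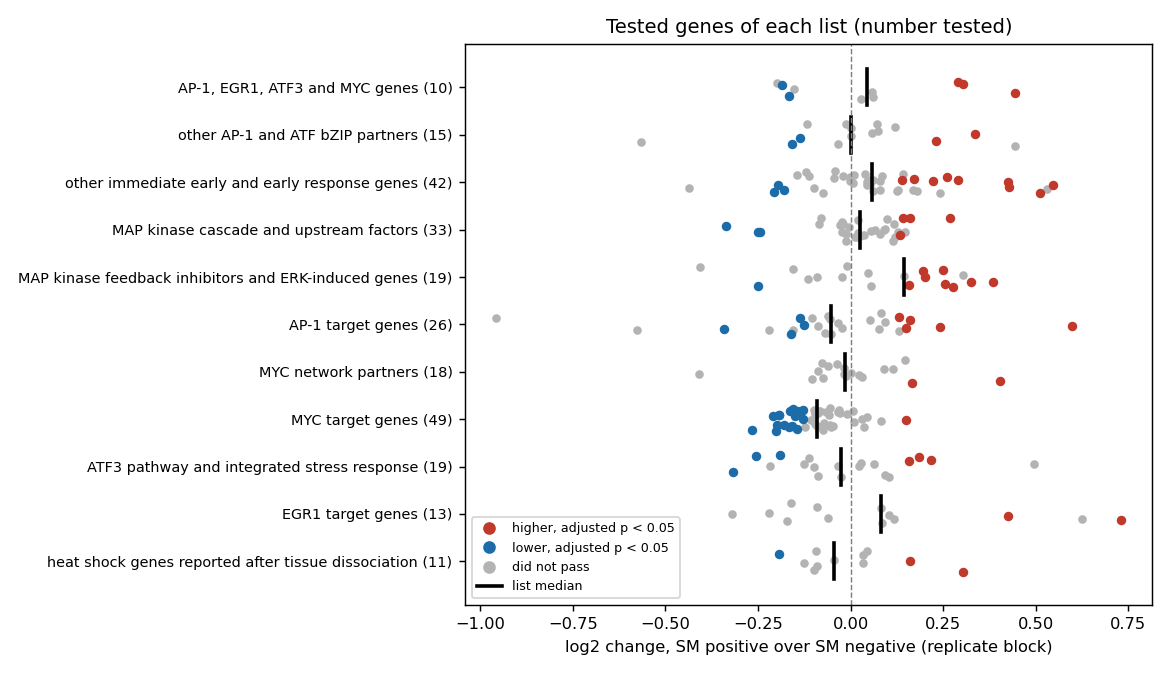
Log2 change, SM positive over SM negative, fitted with the replicate block (horizontal axis) for every tested gene of each list (number tested in parentheses), with genes at an adjusted p under 0.05 in red (higher) or blue (lower) and the list median as a black bar. MYC target genes lie mostly left of 0, with 17 of 49 called lower, and of the MAP kinase feedback genes 8 of 19 are called higher.

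Heat shock genes are often induced together with Fos and Jun when tissue is dissociated. Of 11 tested, 2 rose and 1, Hspe1, fell (18.2% and 9.09%, against 8.52% and 5.6% of all genes), with a median log2 change of -0.04, and none passed without the block. Dnajb4, a cochaperone, rose 1.23-fold and Hspa1b, an inducible HSP70, 1.12-fold (adjusted p = 0.000606 and 0.0196). Hspa1b has a near-identical copy, Hspa1a, listed at 0 to 8 counts per library, so its level may combine both. With the block, 1 rose without replicate 1, without replicate 2 and with DESeq2, and 0 fell without replicate 1 and 3 without replicate 2. Between replicate numbers 6 of the 11 differed (54.5%, against 17% of all genes). Libraries numbered 2, where Fos and Fosb were lowest, were the highest for 9 of the 11 and the lowest for 0. Over all 14038 genes they were the highest for 4480 and the lowest for 4815. Hspa1b differed 1.66-fold between numbers and was lowest in libraries numbered 1, where Fos was highest and Jun and Fosl2 were lowest. The part of cell handling in the levels of the immediate early genes was not tested.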

How the data were processed

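Polyadenylated RNA was sequenced from 6 libraries, 3 for each fraction, made with a stranded mRNA kit per the labels' protocols. The authors deposited expected counts per gene. RSEM 1.3.1, STAR 2.6.0a, FastQC 0.11.5 and the build GRCm38 are named in the submitters' processing notes. Annotation release and strand setting: not given in the sources used here. Symbols, positions and merged exon lengths came from GENCODE M21 (99.8% of identifiers matched without version numbers), and promoters from RefSeq.

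Deposited expected counts were rounded, filtered with filterByExpr, scaled by TMM and tested with edgeR 4.0.16 (R 4.3.3; quasi-likelihood, robust) with the replicate number as a block and Benjamini-Hochberg adjustment over all 14038 genes (threshold 0.05). The fit was tested on simulated counts, drawn independently for each library from the fitted block model. Such counts cannot show whether the p-values hold if the numbered libraries are technical. SE is the log2 change divided by the square root of F; levels are mean ± SD, n = 3, unless stated. Log2 CPM used a prior count of 2. No library pair agreed within sampling noise (chi-square per gene 6.32 to 18.1). Counts of 0 allow up to 3 counts, 0.113 to 0.160 CPM, counting error only.

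The comparison was set as paired by replicate number. Deviations from fraction means correlated at 0.220, 0.280 and 0.196 between libraries of the same number and at -0.175 to -0.043 otherwise, so all 3 pairs passed the minimum of 0.1 set for pairing. The members and lists were chosen with earlier results of these data known, the lists from general knowledge. Named were all members, up to 3 genes per list and direction past the threshold with the smallest p and at least 1 CPM, and the 2 most abundant markers of each cell type; 2 list genes this rule names are not reported here. The promoter motifs TGACNTCA, TATAAA and GCGGGGGCG and the test between replicate numbers were added after values were seen. Alternatives were the fit without the block, RLE factors, library totals, other filters, DESeq2 1.42.0, limma-voom (limma 3.58.1), no robust estimation, unrounded counts, and each pair or library left out.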

Additional observations from a re-analysis of the deposited data

How the results depend on the processing

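Among the settings that kept the replicate block, Fos, Fosl2 and Jun were called higher in all 11, Myc was called lower in 9 and Junb in 7. No setting changed the direction of these 5 genes. Without the replicate block edgeR called 0 members (0 higher, 0 lower), 190 genes (160 higher, 30 lower) and 5 list genes, against 5 (3 higher, 2 lower), 1982 (1196 and 786) and 70 with the block. DESeq2 called 616 genes (423 higher, 193 lower), 32 list genes and 1 member lower, and the fit without robust estimation called 1 member lower. With the block and a pair left out, counts ranged over 705 to 1793 genes (506 to 1029 higher, 199 to 764 lower), 23 to 64 list genes and 3 to 5 members (3 higher in each fit, 0 to 2 lower). With no block and a library left out they were 25 to 123 genes (21 to 102 higher, 4 to 26 lower), 1 to 5 list genes and 0 members. The member calls thus rest on comparing libraries of the same number. Leaving out a pair leaves fewer libraries, and the cause of the other differences was not tested. With a pair or library left out, the log2 changes of members that did not pass turned sign at least 1 time each for Egr1 (-0.34 to 0.079), Fosb (-0.21 to 0.33), Fosl1 (-0.0058 to 0.13) and Jund (-0.090 to 0.14), none of them called. Atf3 passed with no filter alone (log2 change -0.19). The calls of Junb and Myc ended without replicate 2 or without replicate 3, while those of Fos, Fosl2 and Jun did not. The part of depth in this was not tested.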
